A study of Bos taurus with 4 samples.

Results

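GHR, IGF1, ESR1, STAT5A and STAT3 are 5 genes through which growth hormone, insulin-like growth factor, oestrogen and cytokine signals act on the mammary gland. They were taken by their Ensembl identifiers, 5 of the 24616 gene rows in the series, and all 5 were present. In the order above the identifiers are ENSBTAG00000001335, ENSBTAG00000011082, ENSBTAG00000007159, ENSBTAG00000009496 and ENSBTAG00000021523. The table itself pairs no gene names with identifiers, so the names are those given with the choice of the 5 rows. A RefSeq gene table (assembly ARS-UCD2.0) lists all 5 symbols, but it carries no Ensembl identifiers against which the pairing could be tested, and coordinates are not reported here.

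RNA of cattle whose breed label reads "Hostein" was sequenced from mammary tissue (2 libraries, animals labelled female) and from lymphocytes (2 libraries, animals labelled male). Tissue and sex therefore cannot be told apart, and every difference below is one between both. The labels used here name no age, lactation stage, genotype or treatment for either group, and do not state that replicate libraries stem from different animals. A p-value here thus rests only on spread between libraries, some of which may be technical. In the main fit that spread was pooled over rows of like level and was not the gene's own. Both mammary titles contain "dup", a mark that the lymphocyte titles lack and that the labels do not explain. Values are FPKM, fragments scaled to transcript length and library size, so levels of different genes can be set side by side within a library. The FPKM of all rows summed to between 828745 and 1536182 per library, and absolute sequencing depth is unknown. Marker genes of epithelium, stroma, blood or lymphocytes could not be matched to rows, so the tissue labels were not checked against them.

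In the mammary gland, growth hormone binds its receptor GHR, which signals through the kinase JAK2 to STAT5, and one target of this axis is IGF1, a growth factor made largely by liver and by stromal cells. Prolactin also acts through STAT5, and STAT5A is the main transducer of prolactin in milk-secreting epithelium, where it is needed for milk protein gene expression. ESR1 is the oestrogen receptor alpha, needed for the growth of the mammary ducts. STAT3 is activated by cytokines such as LIF and drives involution, the regression of the gland after milk removal stops. In lymphocytes both STATs are activated by interleukins.

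The genes fell into a pair of patterns by level. In both mammary libraries GHR, IGF1 and ESR1 were each above every lymphocyte value, and IGF1 was listed at 0 in both lymphocyte libraries. The 2 STAT genes were present at 9.9 FPKM or more in all 4 libraries. In FPKM as deposited, STAT5A was higher in both lymphocyte libraries than in either mammary library, and the lymphocyte values of STAT3 lay between its mammary values. The difference between mammary tissue and lymphocytes passed the test for GHR, IGF1 and ESR1, all higher in mammary tissue, and for neither STAT gene. A row was tested only if it reached 1 FPKM in at least 2 libraries. Those 3 genes did so through their mammary values alone, which fixed their direction, and they did not pass once this filter was dropped (limma adjusted p = 0.11, 0.18 and 0.22). Over all 12311 rows tested, 8.54% were called in the mammary direction and 10.7% in the lymphocyte direction (limma's moderated test on log2(FPKM + 1), two-sided, adjusted p under 0.05 after Benjamini-Hochberg adjustment over all rows).

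**Figure D1:**
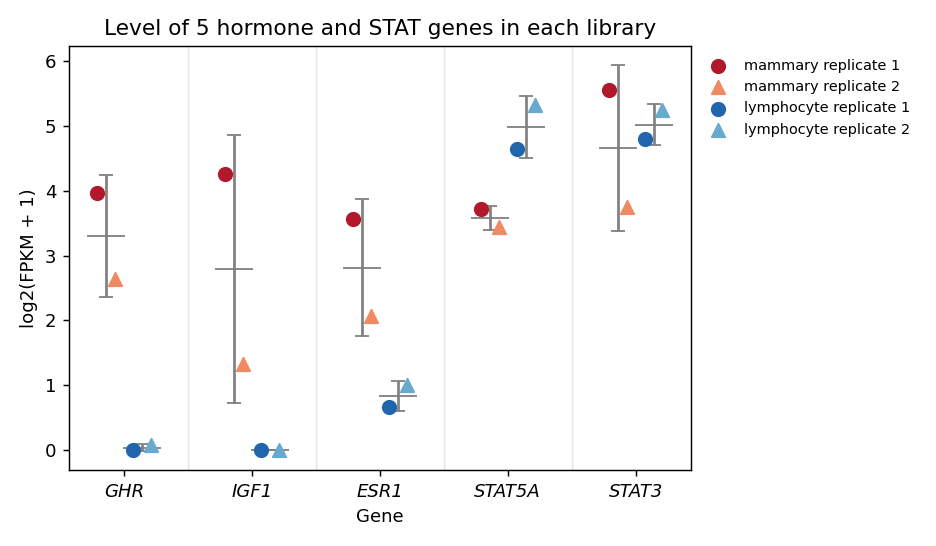
Level of each gene as log2(FPKM + 1) in each of the 4 libraries, with points for libraries and grey bars for the group mean and SD (n = 2). GHR, IGF1 and ESR1 are higher in both mammary libraries than in either lymphocyte library, whereas STAT3 in lymphocytes lies between its mammary values.

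All 5 genes passed the filter on low values. The groups did not overlap, with mammary tissue higher, in 13.7% of tested rows. They did not overlap in the opposite direction in 52.7%, the pattern that STAT5A showed. The median difference (mammary minus lymphocyte) of the 5 genes was 1.98 on the log2 scale, against -0.81 over all rows tested. Because the filter fixed the direction of GHR, IGF1 and ESR1, it also fixed the sign of the median of the 5 genes. Relative to the median of all rows tested, the differences were 4.07 for GHR, 3.60 for IGF1, 2.79 for ESR1, -0.60 for STAT5A and 0.44 for STAT3. In bulk samples, fewer cells of a type and less RNA per cell cannot be told apart, which holds for every level given here.

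In mammary replicates 1 and 2, GHR, the receptor at the head of the axis, stood at 14.6 and 5.21 FPKM. It was listed at 0 in lymphocyte replicate 1 and at 0.0504 FPKM in lymphocyte replicate 2. Both mammary values were thus far above both lymphocyte values. The lower mammary value was 103 times the higher lymphocyte value, but that ratio rests on 0.0504 FPKM, and the detection limit is unknown. The mean was 9.91 ± 6.7 FPKM (SD, n = 2) in mammary tissue, and the log2 difference was 3.26 (SE 0.67, adjusted p by limma = 3.6e-05). GHR passed the filter through its mammary values alone, which fixed its direction. Without the filter its limma adjusted p was 0.11. Of the 9567 rows that reached 1 FPKM in each mammary library, 4.86% were below 0.1 FPKM in both lymphocyte libraries, as GHR was. An exact 0 in such a table can be a failed estimate, so GHR in lymphocytes is described as listed at 0 or near it.

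IGF1, the secreted growth factor, reached 18.1 FPKM in mammary replicate 1 and 1.51 FPKM in mammary replicate 2, and was listed at 0 in both lymphocyte libraries. On the log2(FPKM + 1) scale it had the widest mammary spread of the 5 genes (SD 2.07, n = 2), with replicate 1 at 12.0 times replicate 2. The log2 difference was 2.79 (SE 0.60, adjusted p by limma = 8.2e-05), and no fold is given against a group listed at 0. This SE and p-value used the spread pooled over rows of like level, not the mammary SD of IGF1. The filter fixed the direction of IGF1, and without the filter its limma adjusted p was 0.18. The estimate moved with the mammary library used, from 1.33 without replicate 1 to 4.26 without replicate 2, and in both fits the spread was that of the lymphocyte libraries, where IGF1 was listed at 0, so their p-values carry no information on its mammary spread. Of the 9567 rows that reached 1 FPKM in each mammary library, 2.8% were listed at 0 in both lymphocyte libraries.

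For ESR1, the oestrogen receptor, the mammary libraries gave 10.8 and 3.2 FPKM and the lymphocyte libraries 0.59 and 0.993 FPKM, each in the order of replicates 1 and 2. Unlike GHR and IGF1 it had a value above 0 in every library, and the lower mammary value was 3.22 times the higher lymphocyte value. Its means were 7.0 ± 5.4 FPKM (SD, n = 2) in mammary tissue and 0.792 ± 0.29 FPKM (SD, n = 2) in lymphocytes, an 8.84-fold ratio of means. The log2 difference was 1.98 (SE 0.71, adjusted p by limma = 0.03), the smallest of the 3 that passed. The filter fixed the direction of ESR1 as well, and without the filter its limma adjusted p was 0.22. Leaving out mammary replicate 1 brought the log2 difference to 1.24, in a fit whose spread was that of the lymphocyte libraries alone.

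The calls for GHR, IGF1 and ESR1 rested on having both lymphocyte libraries in the fit. This was not particular to them, as most calls over all tested rows were lost in the same way. Without lymphocyte replicate 1 the limma adjusted p-values were 0.43 for GHR, 0.42 for IGF1 and 0.83 for ESR1, and without lymphocyte replicate 2 they were 0.57, 0.57 and 0.88. In those fits only the mammary replicates gave the spread, and the lone lymphocyte library was assumed to vary as they do. The log2 differences themselves were 3.23 and 3.30 for GHR, 2.79 in both fits for IGF1, and 1.82 and 2.15 for ESR1. Without the filter on low values 5 of all rows were called.

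STAT5A, the transducer of prolactin and growth hormone signals, had mammary values of 12.1 and 9.9 FPKM and lymphocyte values of 24.1 and 39.1 FPKM (replicates 1 and 2). Both lymphocyte values were above both mammary values, the lower of them by 1.99 times the higher mammary value. The means were 11.0 ± 1.6 FPKM (SD, n = 2) in mammary tissue and 31.6 ± 11 FPKM (SD, n = 2) in lymphocytes. The log2 difference of -1.41 (SE 0.86) did not pass (limma adjusted p = 0.26). STAT5B is a near-identical neighbour of STAT5A, and how fragments shared by both were assigned is not given in the sources used here, so the level of STAT5A is uncertain by that share.

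STAT3, the transducer linked to involution, was the highest of the 5 genes in both mammary libraries and in lymphocyte replicate 1. Its mammary values were 46.2 and 12.4 FPKM and its lymphocyte values 26.8 and 36.9 FPKM (replicates 1 and 2). The mammary values lay on either side of both lymphocyte values, so the groups overlapped. Means were 29.3 ± 24 FPKM (SD, n = 2) in mammary tissue and 31.8 ± 7.2 FPKM (SD, n = 2) in lymphocytes. The log2 difference was -0.37 (SE 0.87, adjusted p by limma = 0.77), smaller than the spread between the mammary replicates (SD 1.28 in log2(FPKM + 1), n = 2). Its sign turned with the mammary library used, at -1.27 without replicate 1 and 0.54 without replicate 2 (limma adjusted p = 0.12 and 0.6, with the spread of the lymphocyte libraries alone). In the RefSeq table STAT5B, STAT5A and STAT3 stand next to each other on 1 chromosome, with 0 protein-coding genes listed between them.

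The order of the 5 levels differed between libraries. In mammary replicate 1 it ran from STAT3 at 46.2 FPKM through IGF1, GHR and STAT5A to ESR1 at 10.8 FPKM. In mammary replicate 2 it ran from STAT3 at 12.4 FPKM through STAT5A, GHR and ESR1 to IGF1 at 1.51 FPKM. Averaged over the mammary libraries, STAT5A was at 11.0 ± 1.6 FPKM, GHR at 9.91 ± 6.7 FPKM, IGF1 at 9.82 ± 12 FPKM and ESR1 at 7.0 ± 5.4 FPKM (SD, n = 2 for each). Neighbours in that order differed by less than the larger of their SDs. In lymphocytes the STAT genes stood far above ESR1, which stood above GHR and IGF1, and the order of the 2 STAT genes turned between replicates.

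The position of a gene among the 12311 tested rows of its own library does not depend on how libraries are scaled to each other. STAT3 lay above 93.5% and 88.0% of the rows of the mammary libraries (replicates 1 and 2) and above 86.0% and 86.6% of those of the lymphocyte libraries. By position STAT3 was thus slightly higher in mammary tissue in both libraries, where by FPKM the groups overlapped. STAT5A lay above 70.2% and 84.8% of rows in the mammary libraries and above 84.2% and 87.8% in the lymphocyte libraries, so by position its groups overlapped, where by FPKM they did not. GHR lay above 75.7% and 71.4% of rows in the mammary libraries and above 0% and 3.58% in the lymphocyte libraries. ESR1 lay above 66.7% and 56.8% in mammary tissue and above 8.85% and 9.1% in lymphocytes. IGF1 lay above 80.9% of rows in mammary replicate 1 and above only 33.0% in mammary replicate 2.

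**Figure D2:**
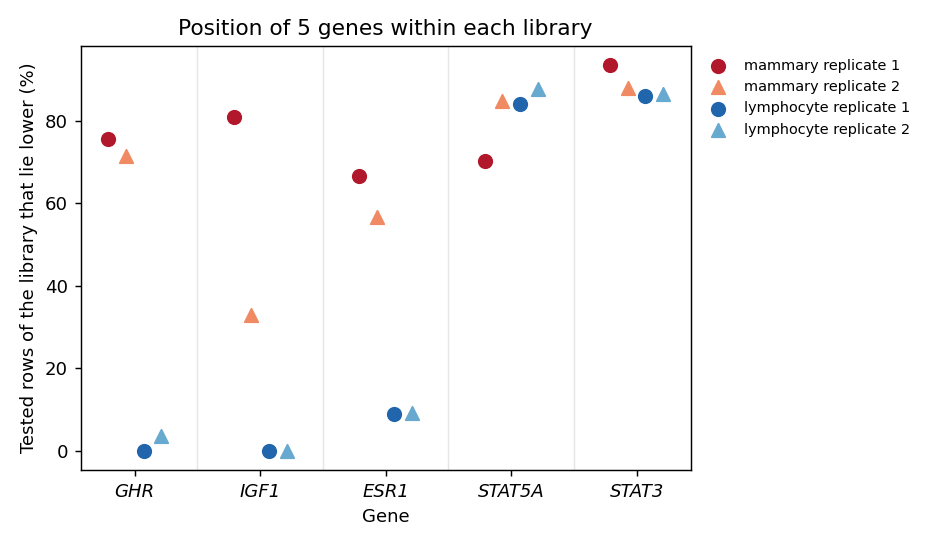
Share of the 12311 tested rows that lie below each gene within its own library (percent, vertical axis), 1 point per library. STAT3 lies above 86.0% of rows or more in every library, while IGF1 lies above 80.9% and 33.0% in mammary replicates 1 and 2.

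The mammary replicates differed in most rows, and the 5 genes did not follow that shift alike. The median row was at -1.05 in replicate 2 minus replicate 1 on the log2(FPKM + 1) scale, with quartiles of -1.43 and -0.64. GHR, at -1.33, lay within the quartiles and ESR1, at -1.49, just outside them. STAT3 was at -1.81, lower than all but 11.4% of rows, and IGF1 was at -2.93, lower than all but 1.23%. STAT5A differed least, at -0.27, which is higher than 87.8% of rows. Between the lymphocyte replicates the median row was at 0.40 (replicate 2 minus replicate 1), and STAT5A and STAT3 were at 0.67 and 0.45. Apart from the number in each title, the labels used here name nothing that separates the mammary replicates.

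**Figure D3:**
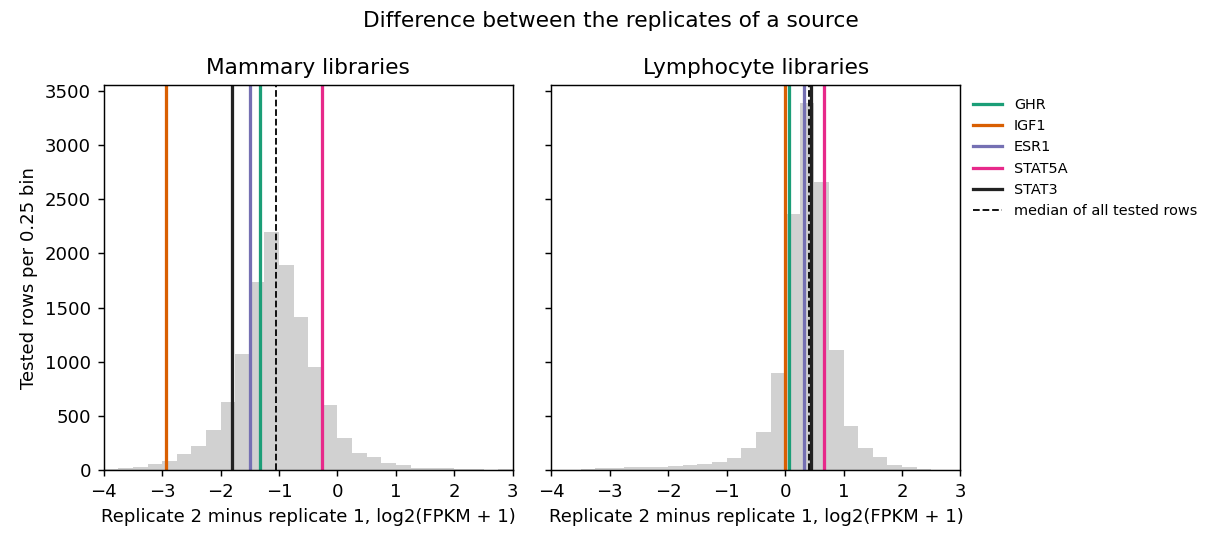
Number of tested rows (vertical axis) by the difference of replicate 2 minus replicate 1 in log2(FPKM + 1), for mammary (left) and lymphocyte libraries (right), with coloured lines at the 5 genes and a dashed line at the median row. In mammary tissue IGF1 lies at -2.93, far below the median row at -1.05, and STAT5A at -0.27 lies above it; the axis is limited to -4 to 3, and rows beyond it are not drawn.

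Ratios of 2 of the genes within a library are also free of the scaling between libraries, and 10 such ratios were formed. The ratio of ESR1 to STAT3 was 0.234 and 0.257 in the mammary libraries against 0.022 and 0.0269 in the lymphocyte libraries (replicates 1 and 2). Both values of a source were close, and mean log2 ratios of -2.03 ± 0.10 and -5.36 ± 0.20 (SD, n = 2) stood 3.33 apart, or 10.1-fold. ESR1 to STAT5A differed between sources by 4.43 on the log2 scale, but its mammary values of 0.892 and 0.323 were further apart. With 2 libraries against 2, an exact two-sided permutation test cannot go below p = 0.33, and it gave that value for each of these differences.

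The ratio of STAT5A to STAT3, the transducers of secretion and of involution, was 0.262 and 0.797 in the mammary libraries against 0.9 and 1.06 in the lymphocyte libraries (replicates 1 and 2). STAT5A was thus lower relative to STAT3 in both mammary libraries, by a mean of -1.09 on the log2 scale (exact permutation p = 0.33, the smallest this design allows). Mammary replicate 2 lay close to the lymphocyte values, and the difference was -0.29 without mammary replicate 1 and -1.90 without mammary replicate 2. GHR to ESR1, the ratio of the receptors, was 1.35 and 1.63 in the mammary libraries, and GHR to STAT3 was 0.316 and 0.419. The ratio of GHR to IGF1 was 0.806 in mammary replicate 1 and 3.44 in mammary replicate 2. GHR, ESR1 and STAT3 thus kept closer proportions between the mammary replicates than IGF1 or STAT5A kept to any of them.

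Among all tested rows, GHR had a larger mammary minus lymphocyte difference than 97.7%, IGF1 than 96.5% and ESR1 than 93.0%. The filter fixed the direction of GHR, IGF1 and ESR1, so each had to rank above every row without a positive difference. Only 2921 of the 12311 tested rows had a positive difference, so much of the height of these ranks was set by the filter. STAT3, although lower in mammary tissue by its mean (and higher after median-of-ratios or quantile scaling), stood above 67.2% of rows, because the median row was at -0.81. STAT5A stood above 23.2%.

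**Figure D4:**
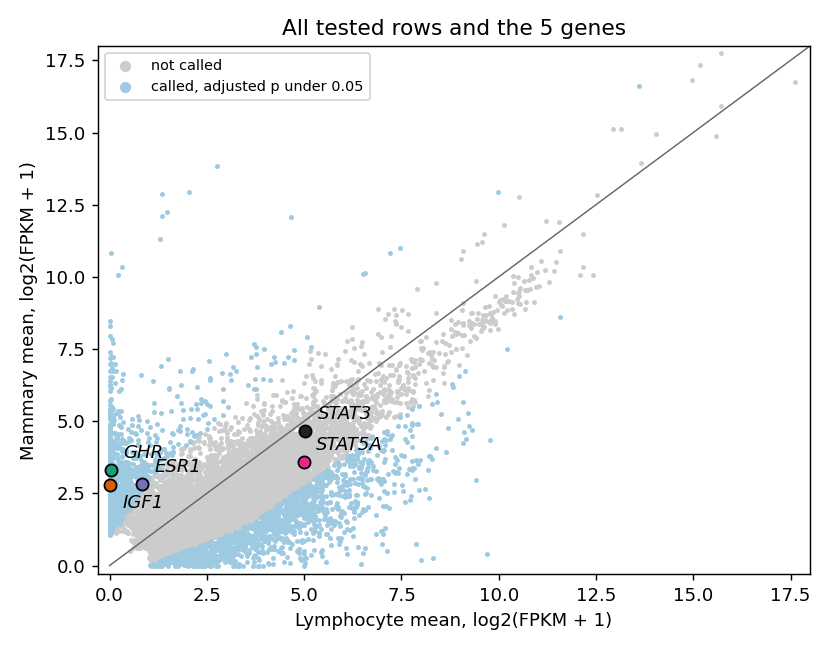
Mean log2(FPKM + 1) in mammary tissue (vertical axis) against lymphocytes (horizontal axis) for the 12311 tested rows, with rows called at an adjusted p under 0.05 in blue, a line of equal level, and the 5 genes marked. GHR, IGF1 and ESR1 lie among called rows at the left edge, and STAT5A and STAT3, in FPKM as deposited, lie below the line among rows that were not called; STAT3 lies above 0 in difference after median-of-ratios or quantile scaling.

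Because most rows were lower in mammary replicate 2, the differences were also estimated after median-of-ratios scaling, which puts the median row at -0.02 and divided mammary replicate 2 by 0.435. GHR then had scaled FPKM values of 12.9 and 12.0 in mammary replicates 1 and 2, and it differed between sources by 3.73 on the log2 scale (SE 0.20, adjusted p by limma = 0.0081). ESR1 was at 9.54 and 7.35 scaled FPKM in mammary tissue, a difference of 2.60 on the log2 scale (SE 0.23, adjusted p by limma = 0.01). GHR was thus nearly equal between mammary replicates on this scale, and ESR1 was closer between them than in FPKM as deposited. IGF1 stayed apart at 16.0 and 3.48 scaled FPKM, and its log2 difference of 3.13 (SE 0.69) passed narrowly (limma adjusted p = 0.046). GHR, IGF1 and ESR1 entered this fit through the same filter on FPKM as deposited, which fixed their direction. No fit with this scaling was run without the filter, so these p-values carry the same limit as those above. After this scaling 12.1% of all rows were called in the mammary direction and 8.46% in the lymphocyte direction.

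How the STAT genes compared between sources depended on the scaling. Scaled STAT3 was at 40.8 and 28.6 FPKM in mammary tissue and at 22.2 and 22.5 FPKM in lymphocytes. Its groups no longer overlapped, and mammary tissue was higher by 0.59 on the log2 scale (SE 0.28, adjusted p by limma = 0.2, not passing). The share of all rows without overlap after this scaling was not determined, so the separation of STAT3 cannot be set against it. Scaled STAT5A was at 10.7 and 22.8 FPKM in mammary tissue and at 20.0 and 23.9 FPKM in lymphocytes, so its groups now overlapped, at a log2 difference of -0.45 (SE 0.42, adjusted p by limma = 0.47). Giving every library the same FPKM total put the median row at -1.38, and only there, of the 16 alternatives run, did STAT5A pass as lower in mammary tissue, at -2.07 (SE 0.73, adjusted p by limma = 0.014). Quantile normalization put the median row at -0.17, STAT5A at -0.53 and STAT3 at 0.54, with neither passing (limma adjusted p = 0.35 and 0.3). For the other 3 genes the direction was fixed by the filter, and the log2 differences over these 4 scalings ran from 2.98 to 3.73 for GHR, from 2.55 to 3.13 for IGF1 and from 1.54 to 2.60 for ESR1. The limma adjusted p of IGF1 was 0.05 after rounding with quantile normalization.

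**Figure D5:**
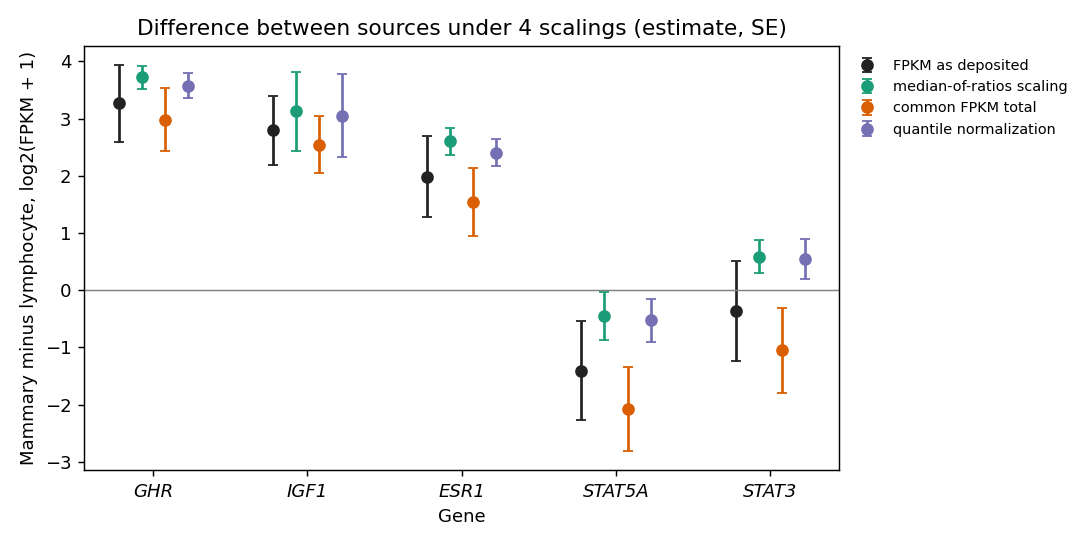
Mammary minus lymphocyte difference in log2(FPKM + 1), with its standard error from limma, for each gene under 4 scalings of the libraries. GHR, IGF1 and ESR1 lie above 0 under each, STAT5A below 0 under each, and STAT3 on either side, from -1.05 with a common FPKM total to 0.59 with median-of-ratios scaling.

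Rows with the most similar pattern were sought by Euclidean distance over the 4 libraries between log2(FPKM + 1) values centred on each row's mean, and are given by identifier since names were not matched. Nearest to GHR was ENSBTAG00000021923, at 13.4 and 4.82 FPKM in the mammary libraries and listed at 0 in both lymphocyte libraries (distance 0.089). Nearest to ESR1 was ENSBTAG00000000603, at 8.79 and 2.37 FPKM in mammary tissue and 0.335 and 0.698 FPKM in lymphocytes (distance 0.064). ENSBTAG00000009924 was nearest to STAT3, at 7.44 and 1.4 FPKM in mammary tissue and 3.74 and 5.5 FPKM in lymphocytes (distance 0.066), and thus showed the same overlap at a lower level. ENSBTAG00000013170 was nearest to STAT5A (distance 0.085), but at 0.286 and 0 FPKM in mammary tissue and 1.41 and 2.68 FPKM in lymphocytes it was a far lower row. Fewer rows shared the patterns of GHR, IGF1 and ESR1 than those of the STAT genes. Of the 12311 tested rows, 53, 50 and 161 lay within a distance of 0.5 of GHR, IGF1 and ESR1. For STAT5A and STAT3 there were 699 and 742. The distance takes in the size of the mammary minus lymphocyte difference, so these counts are not separate from it. Distances among GHR, IGF1 and ESR1 were between 1.23 and 1.32 and STAT5A lay 1.52 from STAT3.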

How the data were processed

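The deposited table gives FPKM computed by the authors, 1 column per library, and all 4 columns matched 1 sample title each (0 left unmapped). The submitters' processing notes name Trimmomatic 0.39, STAR, Cufflinks and the assembly UMD3.1; their settings, annotation release and use of strand are not stated there. FPKM keeps no counts. Low values below 0.08 FPKM were tested for whole-fragment steps (tolerance 0.015 on the log2 scale), and at the best offset 21.4% of 337 mammary and 20.3% of 453 lymphocyte rows fell on steps, so no reads were recovered, no count test was run and no detection limit is given. FPKM is also relative, so a few very high rows lower all others. The table writes zeros with 1 or with 6 decimals, and both were read as 0. The zero of IGF1 had 6 decimals in lymphocyte replicate 1 and 1 decimal in lymphocyte replicate 2. That of GHR in lymphocyte replicate 1 had 1 decimal. What separates these forms was not tested.

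Rows with at least 1 FPKM in 2 or more libraries (12311) were tested on log2(FPKM + 1), a scale that understates the change of low rows, with limma 3.58.1 (R 4.3.3; mean-variance trend, tissue as the only term, all 4 libraries). The prior degrees of freedom were infinite, so the test used a spread pooled over rows of like level (0.84 at the median) and not the row's own; after median-of-ratios scaling the prior was 2.27 and the spread 0.28. The limma step was tested on simulated data with known changes. Every simulated row had the same spread, taken from the lymphocyte replicates, and no shift between libraries was simulated. It therefore does not cover the shift seen between the mammary replicates. Alternatives covered scaling, pseudocount, filter, trend and each library left out. Replicates were numbered in accession order. The 5 genes, the lists and the rules were chosen with earlier results of these data known. The rule for other named genes was the row nearest each gene, for at most 2 identifiers per direction. A list of other receptors, ligands, STATs and inhibitors, and lists of cell type markers, could not be matched to identifiers and were not analysed here, and no sequences were used.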

Additional observations from a re-analysis of the deposited data

How the results depend on the processing

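GHR, IGF1 and ESR1 were higher in mammary tissue under every alternative run, 16 for GHR and 15 for IGF1 and ESR1, which a filter at 5 FPKM in 2 libraries removed; the filter of 1 FPKM fixed that direction. Without the filter on low values the log2 differences were still 3.26, 2.79 and 1.98 but did not pass, and the calls over all rows dropped to 4 in the mammary direction and 1 in the lymphocyte direction. With 1 library left out, GHR ranged from 2.60 to 3.93, IGF1 from 1.33 to 4.26, ESR1 from 1.24 to 2.73, STAT5A from -1.75 to -1.07, STAT3 from -1.27 to 0.54 and the STAT5A to STAT3 log2 ratio from -1.90 to -0.29. After median-of-ratios scaling without lymphocyte replicates 1 and 2, GHR (3.70 and 3.75), IGF1 (3.13 and 3.13) and ESR1 (2.55 and 2.66) did not pass; only the mammary replicates then gave the spread. STAT5A reversed to 0.06 with that scaling and without mammary replicate 1, and the cause was not tested. STAT3 reversed to 0.59 with median-of-ratios scaling and 0.54 with quantile normalization, and with median-of-ratios scaling it was at 0.34 and 0.84 without mammary replicates 1 and 2 and at 0.58 and 0.60 without lymphocyte replicates 1 and 2; the cause was not tested beyond the shift of the median row. STAT5A passed at -2.07 with a common FPKM total, where 5644 rows were called in the lymphocyte direction and the median row lay at -1.38. A filter at 5 FPKM tested fewer rows and left 383 calls in the mammary direction. With a library left out, the mammary direction had 37 to 1187 calls and the lymphocyte direction 58 to 2754. With median-of-ratios scaling as well, the fits without mammary replicates 1 and 2 had 1724 and 1229 calls in the mammary direction and 751 and 259 in the lymphocyte direction. The counts of 0, by limma, arose after median-of-ratios scaling without lymphocyte replicate 1 or 2, where 2807 and 2995 rows had an unadjusted p under 0.05. Over the alternatives the limma adjusted p ranged from 9.8e-08 to 0.57 for GHR, 3.1e-07 to 0.57 for IGF1, 0.0089 to 0.88 for ESR1, 0.014 to 0.98 for STAT5A and 0.096 to 0.99 for STAT3. No paired analysis was possible: the mammary animals are labelled female and the lymphocyte animals male, so by these labels the groups share no animal. Depth is unknown, so counting error at the low values of GHR, IGF1 and ESR1 in lymphocytes could not be estimated.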
